A study of Homo sapiens with 6 samples.

Results

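Collagen genes were taken as every entry of the expression tables whose symbol has the form COL, a type number, A and a chain number. This rule found 44 genes among 21314 entries, all present in GENCODE release 29. They comprise 11 genes of fibrillar collagens, 8 of basement membrane collagens, 8 of network-forming and beaded-filament collagens, 10 of fibril-associated collagens, 4 of transmembrane collagens and 3 others. The expression of 22 of the 44 was high enough to be tested between the groups.

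RNA sequencing was performed on ARPE-19 cells, an established human retinal pigment epithelial (RPE) cell line. Control cells carried a control lentivirus, and PDZK1 cells carried a PDZK1 overexpression lentivirus. PDZK1 is a scaffold protein with several PDZ domains. Both groups were transduced at a multiplicity of infection of 10, selected with 4 µg/ml puromycin and then kept for 48 h in glucose at 37.5 mM, so the glucose load was common to all 6 libraries (3 per group). Cells that keep the vector after selection are a transduced pool of 1 line, and the promoter that drives PDZK1 is not given in the sources used here. The comparison asks how the transcripts of the collagen chains differ between PDZK1-overexpressing and control RPE cells under high glucose.

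Collagens are secreted proteins in which alpha chains wind around each other into a rod-like helix. Fibrillar collagens align into the cables of the extracellular matrix, type IV collagen forms the sheet-like meshwork of basement membranes, and type VIII collagen forms short-chain lattices. Fibril-associated collagens decorate the surface of fibrils, and transmembrane collagens stay anchored in the cell membrane. In the eye, the RPE rests on Bruch's membrane, whose layers include its own type IV basement membrane and a meshwork of fibrillar collagens, and the cell line deposits matrix of its own in culture.

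Library totals ran from 27970618 to 32804567 counts, and 3 counts, the upper limit that a count of 0 allows, were worth 0.0915 to 0.109 CPM (counts scaled to the library size by TMM, the trimmed mean of M-values). This limit covers counting error only, because PCR copies of a molecule were not told apart. PDZK1 itself had 19, 18 and 23 counts in control replicates 1 to 3 and 3020, 2541 and 2828 counts in PDZK1 replicates 1 to 3, which matches the labels. The second principal component placed control replicate 3 at -29.99, away from its group (14.45 and 18.79), and results that rest on this library are given with and without it. In PDZK1 replicate 1, the RPE gene BEST1 had 11459 counts, against 124 to 181 in the other libraries. FTH1, annotated on the opposite strand, overlaps BEST1, and the strand setting of the counting is not given. The source of these counts was not tested. Of 15 RPE markers, 11 could be tested and 0 differed by edgeR's quasi-likelihood test (1, LRAT, at an unadjusted p under 0.05). LRAT and SERPINF1 were lower without overlap (log2 fold change -0.82 and -0.83), and of the 11 fitted values 6 were above 0 and 5 below. The defining RPE genes RPE65 and TTR were listed at 0 in all 6 libraries, and DCT and TYR never exceeded 4 counts. KRT8, KRT18, OTX2 and MITF were present at control means of 1152, 782, 63.6 and 42.2 CPM. The other tested RPE markers had control means of 0.721 to 5.18 CPM. Over all 13645 tested genes, 522 passed an adjusted p of 0.05 in the quasi-likelihood test and 2388 had an unadjusted p under 0.05. Of 11 mesenchymal markers, 8 could be tested and 0 differed by that test (3 at an unadjusted p under 0.05). Their summed levels were 4679 to 5557 CPM in control and 4508 to 4952 CPM in PDZK1 libraries, most of it VIM. CDH2, PDGFRB and ACTA2 were also present, at control means of 310, 70.8 and 50.2 CPM, while the fibroblast markers THY1, DCN and LUM were listed at 0. The 3 were POSTN, which was lower without overlap (log2 fold change -2.81, edgeR adjusted p = 0.0704), and CDH2 and PDGFRB, which were higher (0.13 and 0.20). POSTN had 43, 30 and 53 counts in control and 8, 11 and 0 in PDZK1 libraries. Of 7 markers of endothelium, leukocytes, glia and photoreceptors, 2 could be tested and 0 differed (1 at an unadjusted p under 0.05). The part of mesenchymal change in the collagen results was not tested.

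The most abundant collagen transcript in these cells was COL8A1, the alpha 1 chain of type VIII collagen, with a mean over the 6 libraries of 219 FPKM, a level scaled to transcript length that allows genes to be compared. The next 5 were the basement membrane chain COL4A2 at 54.9 FPKM, the fibril-associated COL12A1 at 53.4 FPKM, the fibrillar COL11A1 at 49.7 FPKM, COL4A1 at 36.0 FPKM and COL18A1, the precursor of endostatin, at 29.7 FPKM. These 6 genes held 90.1% ± 0.700 (SD, n = 3) of the summed collagen FPKM in control and 89.8% ± 0.145 in PDZK1 cells. A lower tier between 7.14 and 8.75 FPKM held COL4A5, COL5A2, COL6A1, COL4A3 and COL4A4, and COL7A1 followed at 2.97 FPKM. In this order of means, the library ranges of neighbouring genes overlapped except directly below COL8A1, COL11A1, COL18A1, COL4A4 and COL7A1. Chains of type VIII, IV, XII and XI collagen thus led the listed repertoire, while COL1A1, a chain of type I collagen, had a mean of 0.961 FPKM. Its partner chain COL1A2 was listed at 0, and whether this 0 reflects the transcript or how its locus was named or assembled in the tables could not be told, so nothing is read from it.

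**Figure D1:**
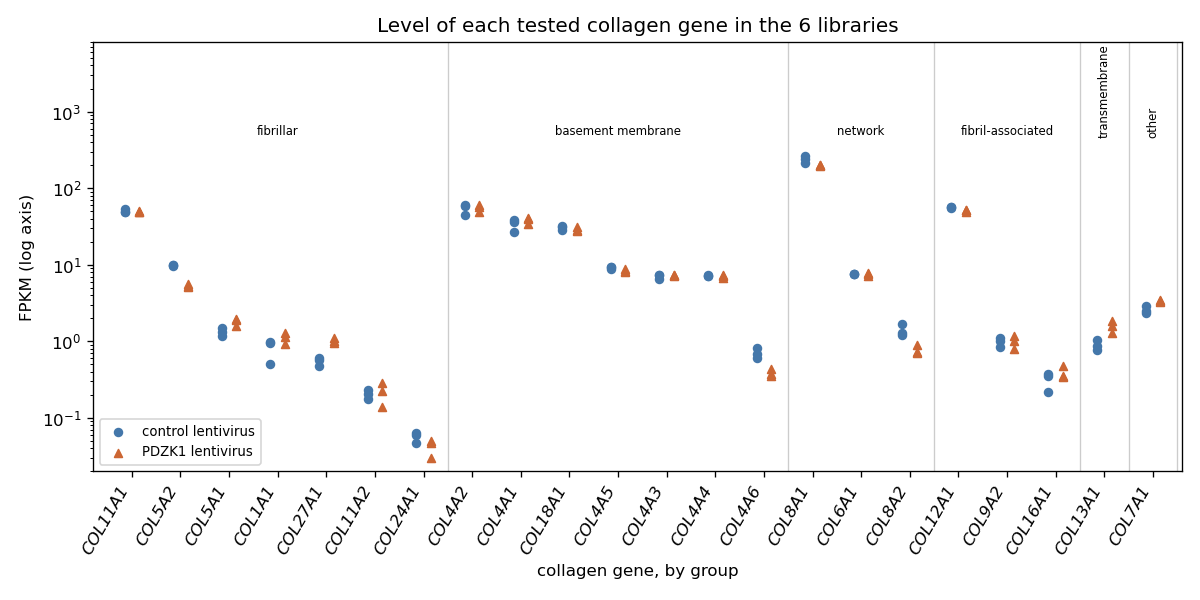
FPKM (log axis) of the 22 tested collagen genes in each of the 6 libraries, with control libraries as circles and PDZK1 libraries as triangles, ordered by group and by mean level. COL8A1 stands alone at the top with a mean of 219 FPKM, and most genes show the 2 groups of points at nearly the same height.

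Another 22 collagen genes could not be tested. The genes listed at 0 counts in all 6 libraries were 10: COL1A2, COL2A1, COL5A3, COL6A2, COL6A5, COL9A1, COL9A3, COL19A1, COL22A1 and COL23A1. The other 12 never exceeded 15 counts in a library: COL3A1, COL6A3, COL6A6, COL10A1, COL14A1, COL15A1, COL17A1, COL20A1, COL21A1, COL25A1, COL26A1 and COL28A1. COL15A1, a basement membrane zone collagen, had 14, 13 and 5 counts in the control and 7, 0 and 0 in the PDZK1 libraries. COL3A1, the partner of type I collagen in soft tissue fibrils, had 12 counts over the control and 6 over the PDZK1 libraries. Differences in these genes were not detectable at this depth.

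Between the groups, 7 of the 22 tested collagen genes (31.8%) passed an adjusted p of 0.05 in edgeR's quasi-likelihood test with Benjamini-Hochberg adjustment over 13645 genes, against 3.83% of all genes tested. COL27A1, COL13A1 and COL7A1 were higher with PDZK1 (1.41% of all genes were called higher), and COL5A2, COL8A2, COL4A6 and COL12A1 were lower (2.41% of all genes). The other 15 did not pass. The median log2 fold change of the 22 was -0.03, against a median of -0.0003 over all tested genes, and the median size regardless of sign was 0.26 against 0.09. The libraries of the groups did not overlap for 11 of the 22 (50.0%), and for 23.9% of all tested genes. An unadjusted p under 0.05 in the edgeR test was found for 11 of the 22 and for 2388 of the 13645 genes. In bulk RNA, fewer cells of a type and less RNA per cell cannot be told apart, and since the labels do not say that replicates are separate cultures, the p-values measure only the spread between these libraries.

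Except for COL5A2, each of these calls was lost when any 1 of at least 2 of the 6 libraries was left out. The number of collagen genes past the threshold was 3, 1 and 7 without control replicate 1, 2 or 3, and 2, 4 and 2 without PDZK1 replicate 1, 2 or 3. The share of all genes called in each of these smaller sets is not given here. Without control replicate 3, COL13A1 was lost and COL8A1 was gained. With a minimum of 10 counts in every library, 21 collagen genes were tested and 7 passed, so only 1 of the 22 was admitted with fewer counts in some library.

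**Figure D2:**
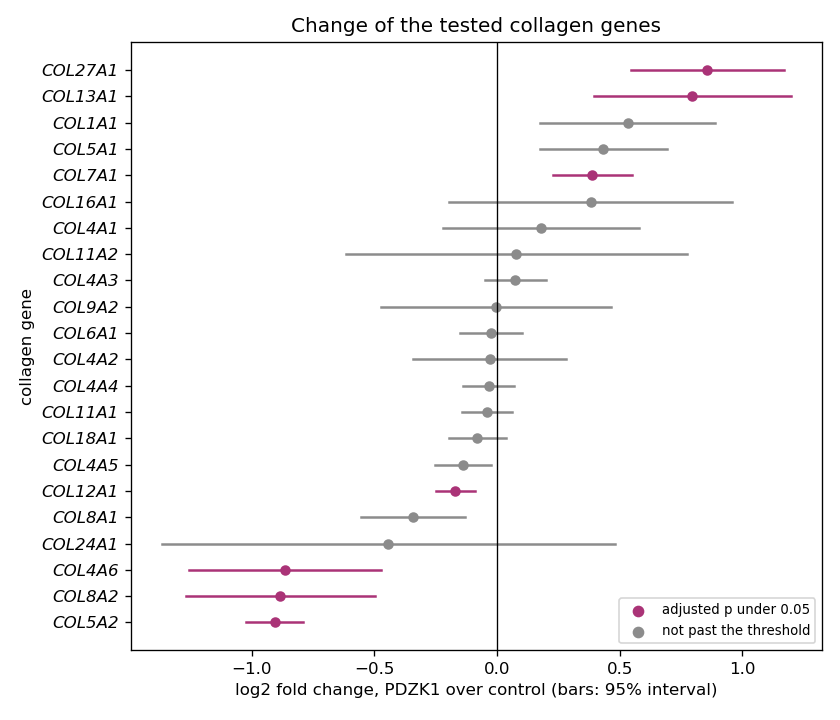
Log2 fold change of each tested collagen gene, PDZK1 over control, with its 95% interval from edgeR. Genes past the adjusted p threshold are in purple, with COL27A1 (0.86) at the top and COL5A2 (-0.91) at the bottom, and the intervals of the grey genes near 0 are mostly narrow.

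Fibrillar collagens were tested for 7 of 11 genes, of which 1 rose, 1 fell and 5 did not pass in edgeR. COL5A2, the alpha 2 chain of type V collagen, which sets the diameter of growing type I fibrils, showed the clearest difference of all collagens. Its levels were 71.6, 74.9 and 73.6 CPM in control replicates 1 to 3 and 40.8, 39.3 and 37.3 CPM in PDZK1 replicates 1 to 3. All PDZK1 libraries lay far below all control libraries, and the spread within each group was small. The mean moved from 73.4 ± 1.67 to 39.1 ± 1.74 CPM (SD, n = 3), a fitted log2 fold change of -0.91 (SE 0.0526, 95% interval -1.03 to -0.79, edgeR adjusted p = 8.14e-05). This gene (ENSG00000204262, chr2:189031896-189225312, minus strand, GRCh38) stayed past the threshold with each of the 6 libraries left out, with edgeR adjusted p at most 0.00225. A gene annotated on the opposite strand, AC133106.1, overlaps it, and the strand setting of the counting is not given. The same limit holds for COL4A6 and for CTSK, MIA2, MMP1, P4HA1, SPARC and TLL1 of the further lists below. Among the leading collagens it holds for COL4A1, COL4A2 and COL18A1.

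COL27A1, a fibrillar collagen of developing cartilage, rose. It had 4.09, 4.82 and 5.25 CPM in the control and 9.36, 8.57 and 7.69 CPM in the PDZK1 libraries. The highest control library was below the lowest PDZK1 library. The mean rose from 4.72 ± 0.591 to 8.54 ± 0.835 CPM (SD, n = 3), a log2 fold change of 0.86 (SE 0.139, 95% interval 0.55 to 1.17, edgeR adjusted p = 0.00992). The call was lost without control replicate 2 or PDZK1 replicate 1, at edgeR adjusted p of 0.0533 to 0.0655. The gene (ENSG00000196739, chr9:114155560-114312511, plus strand, GRCh38) holds the microRNA gene MIR455 on the same strand.

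The remaining fibrillar genes did not pass in edgeR, and DESeq2 called COL5A1 as well (adjusted p = 0.0273). COL5A1, the partner chain of COL5A2 in type V collagen, measured 13.7, 12.2 and 10.9 CPM in control and 17.9, 14.4 and 17.5 CPM in PDZK1 libraries, which did not overlap (log2 fold change 0.43, edgeR adjusted p = 0.0757). COL1A1, the main chain of type I collagen, measured 4.71, 3.30 and 4.20 CPM in control and 6.12, 5.58 and 5.96 CPM in PDZK1 libraries, also without overlap (0.53, edgeR adjusted p = 0.109). Both were singled out after their values were seen. COL11A1, a type XI chain of cartilage and vitreous, was by far the most abundant fibrillar transcript, with 378, 385 and 421 CPM in control and 382, 393 and 376 CPM in PDZK1 libraries. Its groups overlapped, and the 95% interval of its log2 difference ran from -0.14 to 0.06. COL11A2 and COL24A1 had fitted values of 0.08 and -0.44 at levels of at most 2.01 CPM, with intervals that spanned 0.

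Basement membrane collagens were tested for 7 of 8 genes, of which 0 rose by edgeR at an adjusted p of 0.05, 1 fell and 6 did not pass, and 2 of the 7 had an unadjusted p under 0.05. Genes of type IV collagen lie in head-to-head pairs that are transcribed away from each other, and the single change concerned 1 member of such a pair. COL4A6, a chain that assembles with COL4A5 in some basement membranes, had 4.49, 5.15 and 6.02 CPM in the control and 2.59, 3.23 and 2.74 CPM in the PDZK1 libraries. Every PDZK1 library was below every control library. The mean fell from 5.22 ± 0.766 to 2.86 ± 0.337 CPM (SD, n = 3), with a log2 fold change of -0.87 (SE 0.175, 95% interval -1.26 to -0.48, edgeR adjusted p = 0.0267). The call was lost without control replicate 2, PDZK1 replicate 1 or PDZK1 replicate 3, at edgeR adjusted p of 0.106 to 0.123. Its neighbour COL4A5 had 64.6, 65.6 and 61.5 CPM in the control and 57.5, 56.3 and 60.4 CPM in the PDZK1 libraries. These groups did not overlap either, but the difference was small and did not pass (log2 fold change -0.14, edgeR adjusted p = 0.190).

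The sequences upstream of this pair are shown because 1 of its genes fell and the other did not pass, and the short space between the COL4A1 and COL4A2 starts is shown for comparison. They are RefSeq sequences on GRCh38.p14, 5′ to 3′ on the strand of the gene named, with the 250 bases before the start site for COL4A6 (chrX:108439459-108439708, minus strand) and COL4A5 (chrX:108439588-108439837, plus strand), so these windows overlap on opposite strands. The COL4A1-COL4A2 sequence is the 126 bases between the start sites (chr13:110307158-110307283, plus strand). Capitals mark a CCAAT box, a TATA box with the letters TATAAA or a GC box with the letters GGGCGG, on either strand.
COL4A6: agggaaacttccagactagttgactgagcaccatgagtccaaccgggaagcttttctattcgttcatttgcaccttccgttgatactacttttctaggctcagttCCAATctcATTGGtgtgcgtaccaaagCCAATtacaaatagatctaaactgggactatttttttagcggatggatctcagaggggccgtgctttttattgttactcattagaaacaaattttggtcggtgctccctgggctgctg
COL4A5: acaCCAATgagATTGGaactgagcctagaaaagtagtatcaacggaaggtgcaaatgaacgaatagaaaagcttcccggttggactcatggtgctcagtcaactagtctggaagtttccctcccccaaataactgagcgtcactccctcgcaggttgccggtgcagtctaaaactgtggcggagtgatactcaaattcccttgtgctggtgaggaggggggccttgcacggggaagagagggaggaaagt
COL4A1-COL4A2: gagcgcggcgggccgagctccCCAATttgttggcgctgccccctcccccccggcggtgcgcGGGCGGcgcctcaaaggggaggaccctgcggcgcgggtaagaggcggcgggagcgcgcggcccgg

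The start sites of COL4A6 and COL4A5 are 380 bases apart, those of COL4A4 and COL4A3 are 419 bases apart and those of COL4A1 and COL4A2 are 127 bases apart. The CCAAT box was found 3 times in the COL4A6 window and 2 times in the COL4A5 window, while the GC box and the TATA box were found in neither. COL4A6 has another annotated start site, and the window before it, not printed, held a GC box. The space between COL4A1 and COL4A2 held 1 CCAAT box and 1 GC box in a sequence of 80.2% G and C, against 44.0% for COL4A6 and 51.2% for COL4A5. Counted over the same 250 bases before each start in all 35116 promoter windows, with several start sites for some genes, 32% held the CCAAT box and 42.6% the GC box. These matches describe letters only and are not evidence of binding.

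The abundant pair COL4A1 and COL4A2, the chains of the type IV collagen found in nearly all basement membranes, did not pass the test. COL4A1 measured 268, 258 and 189 CPM in control and 280, 244 and 285 CPM in PDZK1 libraries. Control replicate 3 was the low library here, and the log2 fold change of 0.18 (edgeR adjusted p = 0.643) was 0.04 without it (edgeR adjusted p = 0.832). COL4A2 measured 416, 409 and 313 CPM in control and 388, 341 and 386 CPM in PDZK1 libraries. Its groups overlapped, its fitted value was -0.03, and its sign turned under other settings. Both genes overlap each other at their starts on opposite strands, so reads there cannot be assigned without strand information.

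COL4A3 and COL4A4, chains of the specialised type IV collagen of kidney glomeruli, had like levels once scaled to transcript length (7.19 and 7.14 FPKM). COL4A3 measured 48.9, 53.8 and 54.8 CPM in control and 55.4, 54.7 and 55.8 CPM in PDZK1 libraries. COL4A4 measured 77.6, 77.6 and 77.2 CPM in control and 78.7, 76.7 and 71.4 CPM in PDZK1 libraries. Neither passed, with 95% intervals of the log2 difference of -0.05 to 0.20 for COL4A3 and -0.14 to 0.07 for COL4A4. COL18A1 measured 188, 179 and 170 CPM in control and 166, 162 and 180 CPM in PDZK1 libraries, which overlapped (log2 fold change -0.08, edgeR adjusted p = 0.471).

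Network-forming and beaded-filament collagens were tested for 3 of 8 genes, of which 0 rose by edgeR at an adjusted p of 0.05, 1 fell and 2 did not pass, and 2 of the 3 had an unadjusted p under 0.05. COL8A2, the alpha 2 chain of type VIII collagen, a lattice former of the corneal Descemet membrane, had 8.57, 6.57 and 6.09 CPM in the control and 3.40, 4.39 and 3.72 CPM in the PDZK1 libraries. The groups did not overlap, and control replicate 1 was the highest library. The mean fell from 7.08 ± 1.32 to 3.84 ± 0.507 CPM (SD, n = 3), with a log2 fold change of -0.88 (SE 0.171, 95% interval -1.27 to -0.50, edgeR adjusted p = 0.0225). It stayed past the threshold without control replicate 3 or PDZK1 replicate 2, and not without each of the other 4 libraries (edgeR adjusted p of 0.0775 to 0.111). COL8A2 is ENSG00000171812 at chr1:36095236-36125220, minus strand, GRCh38.

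COL8A1, the leading collagen transcript, had 1289, 1238 and 1026 CPM in the control and 947, 871 and 980 CPM in the PDZK1 libraries. All PDZK1 libraries were below all control libraries, with control replicate 3 nearest to them. Its fitted log2 difference of -0.34 (SE 0.0897, 95% interval -0.56 to -0.13) did not pass (edgeR adjusted p = 0.0961), while it was -0.44 and passed without control replicate 3 (edgeR adjusted p = 0.000842). DESeq2 called it as well, at an adjusted p of 0.000393. COL8A1 (ENSG00000144810, chr3:99638475-99799226, plus strand, GRCh38) made up 46.1%, 48.1% and 45.1% of the summed collagen FPKM in the control and 42.1%, 42.6% and 42.5% in the PDZK1 libraries. The summed collagen FPKM itself was 516 ± 35.2 in control and 468 ± 14.5 in PDZK1 libraries (SD, n = 3), and the groups overlapped, at 528, 544 and 477 against 475, 452 and 478. COL6A1, a type VI chain of beaded microfilaments, had 34.8, 34.9 and 35.0 CPM in control and 34.7, 32.3 and 35.7 CPM in PDZK1 libraries, with a 95% interval of the log2 difference of -0.15 to 0.10. Its partner chain COL6A2 was listed at 0 and COL6A3 had 2 counts in all.

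Fibril-associated collagens were tested for 3 of 10 genes, of which 0 rose by edgeR at an adjusted p of 0.05, 1 fell and 2 did not pass, and 1 of the 3 had an unadjusted p under 0.05. COL12A1, whose protein sits on type I collagen fibrils, had 673, 681 and 697 CPM in the control and 600, 621 and 603 CPM in the PDZK1 libraries. The groups did not overlap, but the distance was small. The mean fell from 684 ± 12.1 to 608 ± 11.3 CPM (SD, n = 3), with a log2 fold change of -0.17 (SE 0.0351, 95% interval -0.25 to -0.09, edgeR adjusted p = 0.0296). The interval lies inside a change of 1.5-fold, and the call held without control replicate 3 (edgeR adjusted p = 0.0145) but not without any of the other 5 libraries (0.0613 to 0.152). COL12A1 is ENSG00000111799 at chr6:75084326-75206051, minus strand, GRCh38. COL9A2 and COL16A1, at 1.33 to 3.68 CPM, did not pass, with fitted values of -0.003 and 0.38 and overlapping groups.

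Transmembrane collagens were tested for 1 of 4 genes and the remaining collagens for 1 of 3, and both genes rose. COL13A1, a membrane-anchored collagen of cell adhesion sites, had 2.88, 2.75 and 2.68 CPM in the control and 3.84, 5.31 and 5.30 CPM in the PDZK1 libraries. PDZK1 replicate 1 was the lowest of its group and still above every control library. The mean rose from 2.77 ± 0.0999 to 4.82 ± 0.846 CPM (SD, n = 3), with a log2 fold change of 0.80 (SE 0.179, 95% interval 0.40 to 1.20, edgeR adjusted p = 0.0407). This call held without PDZK1 replicate 1 (edgeR adjusted p = 0.0495) but not without any of the other 5 libraries (0.0532 to 0.181). COL13A1 is ENSG00000197467 at chr10:69801867-69964275, plus strand, GRCh38.

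COL7A1, the collagen of the anchoring fibrils that tie epithelial basement membranes to the stroma below, had 21.7, 21.1 and 24.9 CPM in the control and 29.3, 29.9 and 29.4 CPM in the PDZK1 libraries. The PDZK1 libraries were close together and all above control replicate 3, the highest control. The mean rose from 22.6 ± 2.06 to 29.5 ± 0.300 CPM (SD, n = 3), with a log2 fold change of 0.39 (SE 0.0724, 95% interval 0.23 to 0.55, edgeR adjusted p = 0.0190). Without control replicate 3 the call held (edgeR adjusted p = 0.00190), but not without any of the other 5 libraries (0.0664 to 0.105). COL7A1 is ENSG00000114270 at chr3:48564073-48595267, minus strand, GRCh38, and holds MIR711 on the same strand.

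**Figure D3:**
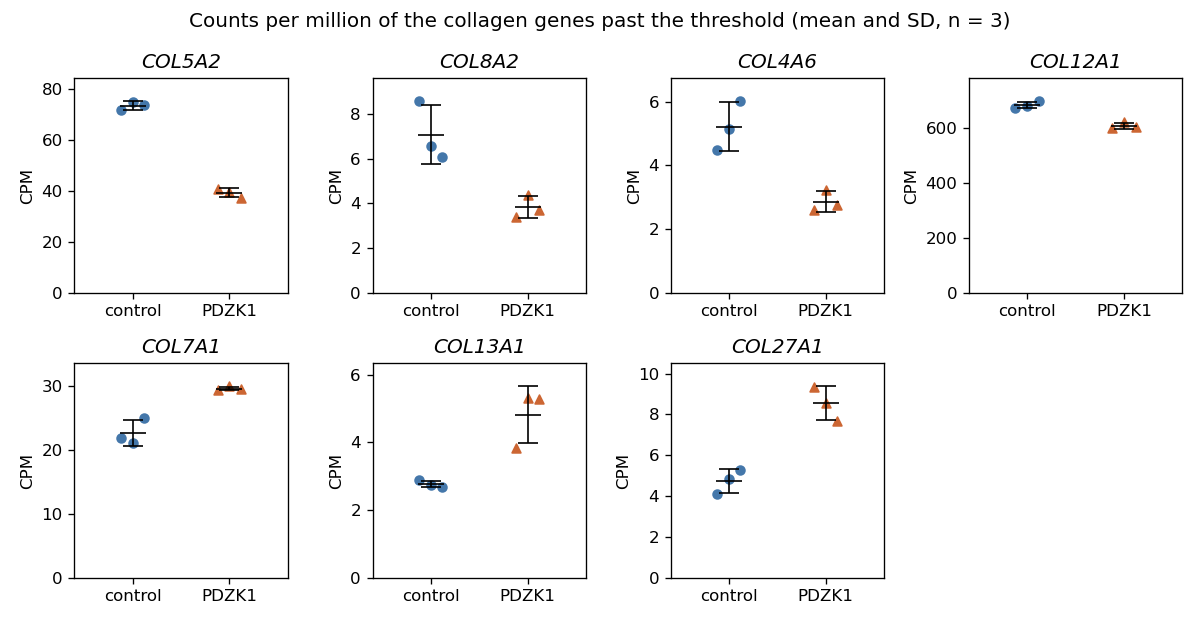
CPM of the 7 collagen genes past the threshold in each library (linear axes from 0), control as circles and PDZK1 as triangles, with bars for mean and SD (n = 3 per group). No control point overlaps a PDZK1 point in any panel, the gap is widest relative to the spread for COL5A2 and the proportional change is smallest for COL12A1.

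The sequences before the start sites of the 3 genes that rose are printed below, as 250 bases 5′ to 3′ on the strand of the gene, from RefSeq on GRCh38.p14. The windows are chr9:114155287-114155536 (plus strand) for COL27A1, chr10:69801656-69801905 (plus strand) for COL13A1 and chr3:48595330-48595579 (minus strand) for COL7A1. Capitals mark the same TATA, GC and CCAAT boxes on either strand, and no matches overlapped.
COL27A1: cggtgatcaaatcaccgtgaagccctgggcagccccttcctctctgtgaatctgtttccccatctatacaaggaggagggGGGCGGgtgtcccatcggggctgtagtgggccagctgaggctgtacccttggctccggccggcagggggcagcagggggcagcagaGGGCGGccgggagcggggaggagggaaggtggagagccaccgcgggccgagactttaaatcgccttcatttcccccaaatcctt
COL13A1: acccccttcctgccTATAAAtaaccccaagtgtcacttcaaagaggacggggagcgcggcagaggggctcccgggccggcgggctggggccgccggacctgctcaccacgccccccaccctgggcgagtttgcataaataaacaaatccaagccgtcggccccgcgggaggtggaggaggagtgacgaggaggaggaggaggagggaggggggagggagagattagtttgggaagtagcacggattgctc
COL7A1: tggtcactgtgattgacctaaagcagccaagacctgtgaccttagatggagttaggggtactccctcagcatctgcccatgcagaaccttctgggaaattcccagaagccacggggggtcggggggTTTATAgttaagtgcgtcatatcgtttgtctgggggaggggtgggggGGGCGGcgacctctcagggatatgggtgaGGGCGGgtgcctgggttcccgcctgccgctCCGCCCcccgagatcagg

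The TATA box letters were found in the COL13A1 and COL7A1 windows and not in that of COL27A1. They were in 10.7% of all 35116 windows. Counted per gene over all of its windows, they were in 7 of the 32 collagen genes with an entry (21.9%). Shares per gene and per window are not the same measure. Of the 4 genes that fell, 3 had a promoter entry and 0 of these held the TATA box letters. The letters lie near the far end of the COL13A1 window. In COL7A1 they lie near the middle of the window, on the opposite strand, so neither match is close to the start site. The GC box was found 2 times before COL27A1, 3 times before COL7A1 and 0 times before COL13A1, and the CCAAT box in 0 of the 3. The letters TGANTCA, the core of the AP-1 element, were in 0 of the 18 tested collagen genes with an entry. They were in 1 of the 32 collagen genes with an entry and in 6.57% of all windows. A match is not a binding site, and RefSeq promoter entries covered 32 of the 44 collagen genes.

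The 7 genes past the threshold lay among neighbours whose median change was near 0. The other tested genes within 5 Mb had medians from -0.06 on the log2 scale around COL5A2 (27 genes) to 0.05 around COL12A1 (29 genes). Around each of the 7, 0 to 3 neighbours were called higher and 0 to 4 lower. These were 1 and 4 of 45 around COL27A1 and 3 and 2 of 41 around COL4A6. Over all tested genes, 1.41% were called higher and 2.41% lower. The part of the neighbourhood in these changes was not tested. The stretch of 150 genes in the first 18 Mb of chromosome 1 had a median of -0.23 and held 0 tested collagen genes.

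Collagen chains work in trimers, so the balance of partner chains was compared within each library as a ratio of FPKM. The ratio of COL5A1 to COL5A2, the main chains of type V collagen, was 0.154, 0.131 and 0.120 in the control and 0.351, 0.296 and 0.374 in the PDZK1 libraries. All PDZK1 ratios were higher than all control ratios, by 1.30 on the log2 scale (FPKM plus 0.1). The ratio of COL4A1 to COL4A2 was 0.629, 0.617 and 0.588 in control and 0.669, 0.700 and 0.727 in PDZK1 libraries. It was again higher with PDZK1 in every library, by 0.19 on the log2 scale. The ratio of COL8A1 to COL8A2 was 143, 203 and 180 in control and 284, 215 and 277 in PDZK1 libraries, a difference of 0.49 on the log2 scale. With a pseudocount of 1 this difference was 0.16 and its exact permutation p was 0.2. COL8A1 exceeded its partner chain by the widest margin of these pairs in both groups. With the pseudocount of 0.1, each of the 3 differences had an exact two-sided permutation p of 0.1, the smallest that 3 against 3 libraries allow, and 0.1 after adjustment over the 3 pairs.

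**Figure D4:**
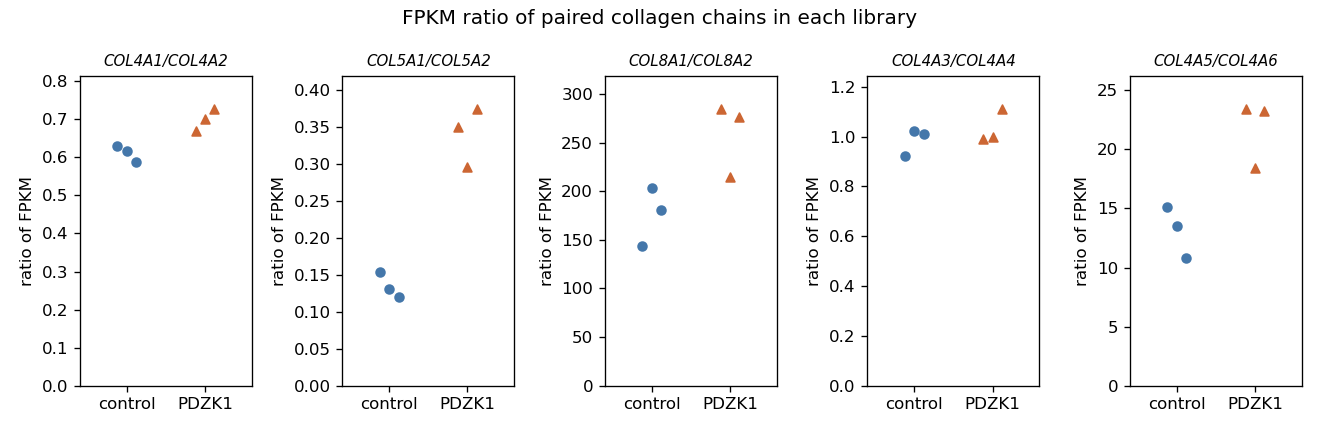
Ratio of FPKM between partner chains of a collagen trimer in each library (linear axes from 0), with 3 control libraries as circles and 3 PDZK1 libraries as triangles in each panel. For COL5A1 over COL5A2, the control libraries lie between 0.120 and 0.154 and the PDZK1 libraries between 0.296 and 0.374.

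Chain pairs outside this test are given as values only. COL4A3 over COL4A4 was 0.920, 1.02 and 1.01 in control and 0.988, 1.00 and 1.11 in PDZK1 libraries, close to equal transcript levels of both chains. COL4A5 over COL4A6 was 15.2, 13.5 and 10.8 in control and 23.4, 18.4 and 23.2 in PDZK1 libraries. In type I and type VI collagen a partner chain was listed at or near 0 counts, so no ratio was formed. For COL6A2 as for COL1A2, it could not be told whether the 0 reflects the transcript or the naming of its locus.

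Procollagen is modified, folded, exported and trimmed by a shared machinery, and all 33 listed genes of this machinery could be tested. Of these, 1 rose, 3 fell and 29 did not pass in edgeR (12.1% past the threshold, against 3.83% of all tested genes). The median log2 fold change was -0.06, and 15 of 33 were without overlap (45.5%, against 23.9% of all tested genes). DESeq2 called 5, adding PLOD2, another lysyl hydroxylase (log2 fold change -0.21, edgeR adjusted p = 0.0575). The share of all genes called by DESeq2 is not given here. MIA2, which helps to load collagen into export carriers at the endoplasmic reticulum, had 41.2, 36.7 and 37.9 CPM in the control and 52.4, 50.7 and 52.9 CPM in the PDZK1 libraries. Its groups were well apart, with a log2 fold change of 0.43 (SE 0.0575, edgeR adjusted p = 0.00351), and it stayed past the threshold with any library left out.

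P4HA1, a catalytic subunit of prolyl 4-hydroxylase, which stabilises the collagen helix, had 103, 103 and 104 CPM in the control and 85.6, 91.0 and 75.5 CPM in the PDZK1 libraries. Its control libraries were nearly equal and all above the PDZK1 libraries (log2 fold change -0.30, SE 0.0625, edgeR adjusted p = 0.0322). PLOD1, a lysyl hydroxylase that prepares cross-links, had 113, 119 and 122 CPM in control and 98.8, 107 and 98.9 CPM in PDZK1 libraries (-0.21, SE 0.0459, edgeR adjusted p = 0.0360). PLOD1 lies in the first 18 Mb of chromosome 1, where 93.3% of the tested genes were below 0, and its change is close to the median of -0.23 there. The part of this region in the PLOD1 change was not tested. TLL1, a protease that removes procollagen ends, had 4.71, 6.18 and 7.57 CPM in control and 3.09, 3.23 and 3.85 CPM in PDZK1 libraries (-0.86, SE 0.194, edgeR adjusted p = 0.0419). In all 3 genes the groups did not overlap, but each call was lost when any 1 of at least 4 of the 6 libraries was left out. With 1 library left out, P4HA1 kept its call only when that was PDZK1 replicate 2 (edgeR adjusted p otherwise 0.0555 to 0.133). TLL1 kept it only without control replicate 1 (edgeR adjusted p otherwise 0.0660 to 0.173), and PLOD1 only without control replicate 3 or PDZK1 replicate 2 (otherwise 0.0550 to 0.177). SERPINH1, the collagen chaperone HSP47, and PPIB, a prolyl isomerase of the same folding step, had fitted values of -0.07 and -0.04 and did not pass.

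**Figure D5:**
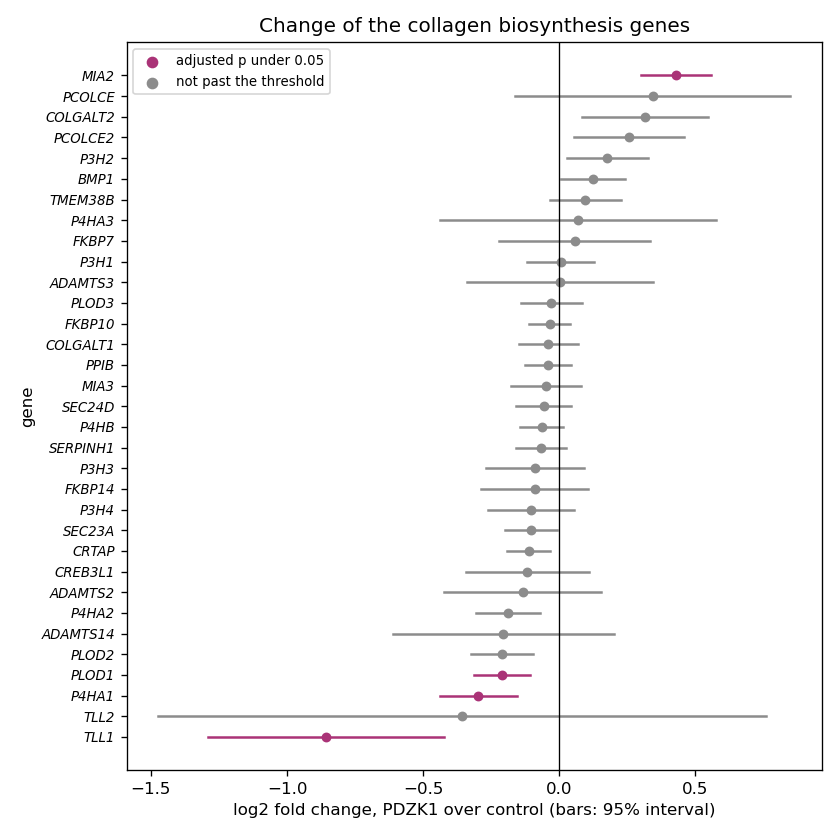
Log2 fold change of the 33 genes that modify, fold, export or trim procollagen, PDZK1 over control, with 95% intervals from edgeR. MIA2 (0.43) is the only coloured gene above 0, and P4HA1 (-0.30), PLOD1 (-0.21) and TLL1 (-0.86) are the coloured genes below it.

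Among 24 collagen receptors, collagen-cleaving proteases and fibril partners, 14 could be tested, of which 2 rose, 1 fell and 11 did not pass in edgeR (21.4% past the threshold, against 3.83% of all tested genes, with a median log2 fold change of 0.16). DESeq2 called 4, adding FN1, the fibronectin on which collagen fibrils are laid down (log2 fold change 0.50, edgeR adjusted p = 0.141, groups without overlap). Its share of calls over all genes is likewise not given. MMP1, the interstitial collagenase that cuts fibrillar collagens, had 1.42, 1.39 and 2.50 CPM in the control and 7.24, 7.29 and 6.34 CPM in the PDZK1 libraries. This was the largest change in the list, with a log2 fold change of 1.98 (SE 0.229, edgeR adjusted p = 0.00160), and it stayed past the threshold with any library left out. CTSK, the lysosomal collagenase cathepsin K, had 481, 476 and 520 CPM in control and 563, 554 and 566 CPM in PDZK1 libraries (0.19, SE 0.0414, edgeR adjusted p = 0.0369). MMP1 and CTSK were higher in every PDZK1 library than in any control library. The other listed proteases did not pass. MMP14, at means of 871 CPM in control and 889 CPM in PDZK1 libraries, overlapped between the groups (0.03, edgeR adjusted p = 0.902). MMP2 was higher without overlap (0.21, edgeR adjusted p = 0.0886), and MMP8 and MMP13 were listed at 0. SPARC, a secreted collagen-binding protein that aids fibril assembly, had 1396, 1356 and 1278 CPM in control and 1181, 1099 and 1167 CPM in PDZK1 libraries (-0.23, SE 0.0464, edgeR adjusted p = 0.0292). CTSK and SPARC held their calls without control replicate 3 and lost them without any other single library, at edgeR adjusted p of 0.0846 to 0.178 and 0.0984 to 0.138. Of the collagen receptor genes, ITGB1, ITGA1 and DDR2 had fitted values of 0.02, -0.05 and -0.03, and ITGA2, DDR1 and ITGA10 of 0.38, 0.22 and 0.31, and none of them passed in edgeR.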

How the data were processed

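Collagen transcripts were measured by RNA sequencing in 6 libraries. Per the submitters' processing notes, the tools were fastp 0.20.1 and HISAT2 2.2.1 and the genome build was GRCh38. The counting program, its strand setting and the annotation release are not given in the sources used here. The authors deposited estimated counts per gene, already whole numbers, and FPKM, scaled by transcript length and library. Each table had 3 further sample columns that matched no sample and were not used. Of 21314 entries, 853 assembled loci without a gene identifier were left out of the test, so reads given to them cannot be credited to a collagen gene. They took 0.519% to 0.536% of the counts.

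Counts that passed filterByExpr (13645 genes) were scaled by TMM and compared with edgeR 4.0.16 in R 4.3.3 (robust quasi-likelihood fit, two-sided, no covariates, Benjamini-Hochberg adjustment over all tested genes, threshold 0.05). The test was checked on simulated data with 200 changed genes. CPM were computed from the deposited counts. Ratios of chains were compared by an exact permutation test. Positions and overlaps come from GENCODE release 29, and promoters from RefSeq.

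The members and gene lists were chosen with earlier results of these data known. Named were collagen genes past the threshold, the 12 with the highest mean FPKM, those without overlap and over 0.58 in log2 fold change, genes of both further lists past the threshold and PDZK1. Other named genes were chosen after their values were seen. Alternatives were DESeq2 1.42.0, limma 3.58.1 (voom, and log2 FPKM plus 1 or plus 0.1 for genes averaging 0.5 or more, and plus 1 without that filter), RLE or total scaling, other count filters, a fit that was not robust, a test against 1.5-fold, removal of a gene length trend, a replicate block, assembled loci kept and each library left out.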

Additional observations from a re-analysis of the deposited data

How the results depend on the processing

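The count of 7 collagen genes past the threshold rose to 9 in DESeq2 (4 higher and 5 lower, adding COL5A1 and COL8A1) and became 1 on log2 FPKM with a pseudocount of 1 or 0.1, 2 without the FPKM filter, 1 with the replicate block and 1 with the block and the length trend removed. Biosynthesis genes, 4 at first, came to 1 under voom, under each of the 3 log2 FPKM fits, in the fit that was not robust, and with the block alone or with the length trend removed. Of receptor, turnover and fibril partner genes, 3 at first, 1 passed under each log2 FPKM fit and under both fits with the block. The cause was not tested. Shares of all genes called under these alternatives are not given here. A change in these counts therefore cannot be told apart from a setting that calls more or fewer genes in general. The stricter test against 1.5-fold left 1 collagen gene, 0 biosynthesis genes (1 with an unadjusted p under 0.05) and 1 receptor, turnover or partner gene. With 1 library fewer, the counts ran from 1 to 7, from 1 to 4 and from 1 to 3. Replicate numbers did not pair the libraries (residual correlations of -0.05, -0.06 and -0.14 between libraries with the same number). Each number occurs once in each group, so a block cannot change the mean differences in ratios of chains. It is therefore no check on those differences. COL5A2 kept its call under every alternative run, and 0 called genes changed direction. Signs turned for uncalled genes near 0. COL4A2 was at 0.0152 on log2 FPKM plus 1, with or without the filter, at 0.0155 on log2 FPKM plus 0.1, and from -0.15 to 0.04 with 1 library left out (above 0 without control replicate 1, control replicate 2 or PDZK1 replicate 2). With 1 library left out, COL11A1 ran from -0.0709 to 0.0081 (above 0 without control replicate 3), COL6A1 from -0.0561 to 0.016 (without PDZK1 replicate 2) and COL4A4 from -0.0634 to 0.0046 (without PDZK1 replicate 3). Low counts limit what could be seen in the 22 untested collagen genes.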
